A study of Caenorhabditis elegans with 4 samples.

Results

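The genes described here are the cuticle collagen genes of *Caenorhabditis elegans*, chosen by name. They are every gene of the deposited expression table named *col* with a number, together with 15 collagen genes that carry the name of a mutant shape: *dpy-2*, *dpy-3*, *dpy-5*, *dpy-7*, *dpy-8*, *dpy-9*, *dpy-10*, *dpy-13*, *dpy-17*, *rol-6*, *sqt-1*, *sqt-3*, *lon-3*, *bli-1* and *bli-2*. The rule found 156 genes, 141 named *col* and 15 with a classical name, among 15408 genes in the table. The names alone decided, and no measured value entered the rule.

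The study sequenced poly(A) RNA of the wild-type strain N2, which carries no introduced allele. A pair of mixed-stage populations was exposed to 60 µg/ml cisplatin, a platinum drug that crosslinks DNA and binds thiol groups, for 24 h at 20°C, and a pair of untreated populations served as control. All 4 populations were grown on the bacterial strain OP50, and the libraries are numbered 1 and 2 in each group. The labels call them biological replicates without saying whether they were separate cultures, so p-values measure the spread between these libraries, and each RNA sample holds embryos, larvae and adults together. In such whole-animal RNA, fewer animals of a stage and less RNA per animal cannot be told apart.

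The cuticle of *C. elegans* is an extracellular coat of crosslinked collagens that the epidermis secretes anew before each moult. Individual collagen genes are switched on in waves within each moulting cycle, and some are restricted to adults or to dauer larvae. Mutants of single collagen genes can be short and fat (Dpy), helically twisted (Rol), blistered (Bli), long (Lon) or squat (Sqt). A group of 6 collagens, encoded by *dpy-2*, *dpy-3*, *dpy-7*, *dpy-8*, *dpy-9* and *dpy-10*, is needed for the circumferential furrows between the ridges of the cuticle, and *bli-1* and *bli-2* encode collagens of the struts that join the adult cuticle layers.

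Most of these genes are small and have few exons. In the WBcel235 annotation of Ensembl release 115, the 155 collagen genes that could be matched had a median of 2 exons, against 5 for all 19985 protein-coding genes, and 76.1% of them had at most 3 exons, against 27.7% of all. Their median coding length was 304 codons, the middle 50% lay between 295.5 and 329.5 codons, and the extremes were 234 and 948 codons, the longest being *bli-1*. Over all protein-coding genes the median was 329 codons, with the middle 50% between 194.0 and 484.0. Chromosome IV held 41 of the 156 genes, or 26.3%, against 16.4% of all protein-coding genes, and chromosome V held 28, or 17.9%, against 24.99%. A direct neighbour of the same class was found for 43 collagen genes. The gene that was not matched, *col-182*, is annotated as a pseudogene in RefSeq.

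Levels are FPKM as deposited, fragments scaled to exon length and to the mapped fragments of the library. The labels give between 11 and 13 M reads a sample, and the table holds no counts. The collagen genes spanned mean levels of 0.363 to 2518 FPKM, and together they took 3.61% and 3.32% of all FPKM in the cisplatin libraries 1 and 2, against 3.43% and 3.55% in the control libraries. The libraries stood apart by number: 126 and 113 genes of the table were listed at 0 in the cisplatin and control libraries numbered 2, against 292 and 378 in those numbered 1. The median level of the tested genes was 12.8 and 13.3 FPKM in the libraries numbered 2, against 9.67 and 6.97 FPKM in those numbered 1. Of the collagen genes 0 were listed at 0 in either library numbered 2, against 9 and 11 in the cisplatin and control libraries numbered 1.

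The first comparison asked whether exposure to cisplatin changed the levels of the collagen genes. None of them passed. Of the 153 collagen genes tested, 0 were called at an adjusted p of at most 0.05 (limma on log2(FPKM + 0.5), Benjamini-Hochberg over all 15065 genes tested, two-sided), where 0.0% of all genes were called. At an unadjusted p of at most 0.05 the count was 0 higher and 0 lower, against 1.12% and 0.445% of all genes, in this fit without a term for the library number, and the smallest unadjusted p of any collagen gene was 0.0670. This fit leaves the gap between library numbers in the spread. With the number as a term (limma), 10 collagens were higher and 6 lower at that unadjusted p. That was 6.54% and 3.92%, against 6.92% and 2.93% of all genes, and 0 collagens were called by adjusted p. A permutation of 2 against 2 libraries has 0.333 as its smallest two-sided exact p, so no single gene was tested that way.

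The differences between cisplatin and control were small for most collagens. For 134 of the 153, or 87.6%, the difference was within 0.5 on the log2 scale, against 83.3% of all tested genes. Differences on this scale understate those of low genes. The median over the collagen genes was 0.01, and the middle 50% lay between -0.13 and 0.18. Over all tested genes the median was 0.13, so the collagen median was -0.12 relative to it. Relative to all genes it was 0.10 without cisplatin library 1 and 0.18 without control library 2, the opposite direction. In those fits the library numbers were not balanced between the treatments. Within the pairs numbered 1 and 2 the collagen median was 0.22 and -0.14, against 0.25 and -0.003 over all tested genes. Of the 153, 38 were higher with cisplatin in both same-numbered pairs, or 24.8%, and 28 were lower in both, or 18.3%, against 38.4% and 15.7% of all genes.

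The collagens closest to the threshold in the upward direction included *col-76*, a gene of 6 exons and 499 codons. Its level was 23.4 and 25.9 FPKM with cisplatin, against 8.56 and 20.1 FPKM in control, a log2 difference of 0.88 ± 0.453 (SE). The groups did not overlap, but the low value came from 1 control library, and the unadjusted p was 0.0980. *col-107* had 105 and 133 FPKM with cisplatin, against 85.6 and 102 FPKM in control. For *col-146* the values were 113 and 108 FPKM with cisplatin and 80.7 and 100.1 FPKM in control. In both genes the groups did not overlap, and the differences of 0.34 and 0.30 were not past the threshold (limma, adjusted p of 1.00 for each). Library 2 minus library 1 was 0.34 with cisplatin and 0.25 in control for *col-107*. For *col-146* it was -0.06 with cisplatin and 0.31 in control. *col-125*, *col-144* and *col-169* had log2 differences of 0.34, 0.32 and 0.55, and in all 3 the groups overlapped, since the libraries numbered 2 lay above those numbered 1 in both groups.

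In the downward direction the smallest p belonged to *col-142*, with 136 and 169 FPKM in cisplatin libraries, against 193 and 220.2 FPKM in control libraries. Its log2 difference was -0.44 ± 0.200 (SE), with an adjusted p of 1.00 (limma, Benjamini-Hochberg). *col-143*, which lies on the same cosmid T15B7 by its identifier, had 347 and 362 FPKM with cisplatin, against 558 and 419.7 FPKM in control. *col-159* had 203 and 184 FPKM in cisplatin libraries, against 289 and 222 FPKM in control. Each of these 3 was lower in both cisplatin libraries than in both control libraries. The abundant *col-129* had 823 and 659.8 FPKM with cisplatin, against 1059.8 and 859.9 FPKM in control, also without overlap. The other 2 named by the same rule, *col-149* and *col-81*, had log2 differences of -0.55 and -0.28 with overlapping groups. Together 10 collagen genes were higher and 6 were lower in both cisplatin libraries than in both control libraries, or 6.54% and 3.92%, against 15.1% and 4.21% of all tested genes.

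**Figure D1:**
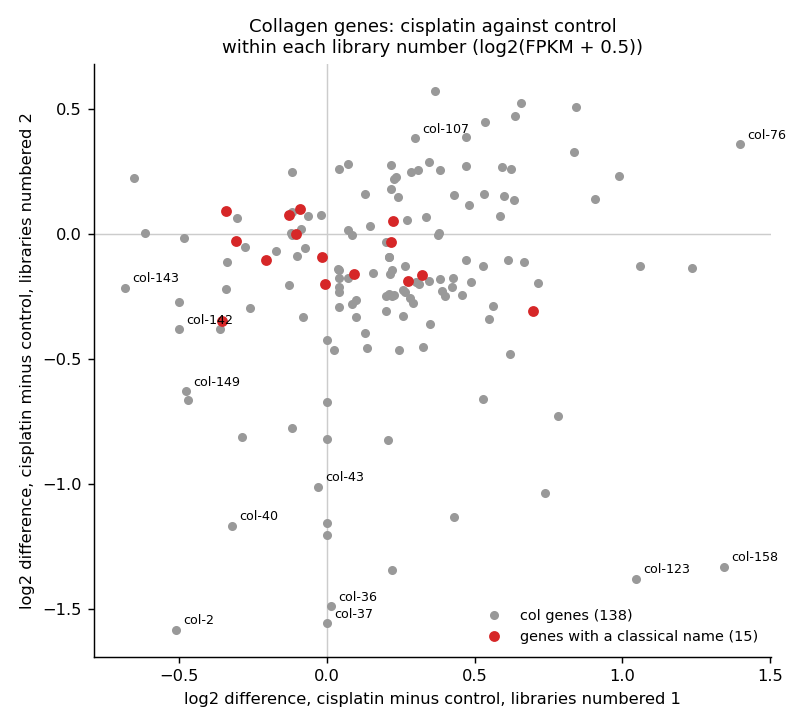
Each point is 1 of the 153 tested collagen genes, with its log2(FPKM + 0.5) difference of cisplatin minus control in the libraries numbered 1 on the x axis and in those numbered 2 on the y axis, and red points are the 15 genes with a classical name. Points spread over all 4 quadrants, with 38 genes higher in both pairs and 28 lower in both, and *col-2*, *col-37* and *col-36* lie lowest on the y axis.

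The groups of collagens named for their mutant shapes were nearly level between treatments in the deposited FPKM. Of the 15 genes 6 had positive differences and 9 negative, with a median of -0.04, while 1 was higher and 6 were lower in both pairs. With quantile normalization 2 were positive and 13 negative, with a median of -0.16. With median scaling it was 0 and 15, with a median of -0.25. The medians over all genes were then 0.01 and -0.06, and 0 of the 15 were called. The 6 furrow collagens had a median log2 difference of -0.01 and a summed level of 97 and 309 FPKM with cisplatin, against 101 and 310 FPKM in control. Loss of the furrow collagens is known to switch on antimicrobial, osmotic and detoxification genes in the epidermis, and 5 reporters of these responses were read beside them. Of these, *gst-4*, a glutathione S-transferase, had 424 and 343 FPKM with cisplatin, against 42.6 and 80.6 FPKM in control. That is a log2 difference of 2.69 with an unadjusted p of 1.21e-04 and an adjusted p of 0.209 (limma, Benjamini-Hochberg over all genes). The study reported a strong induction of *gst-4* by cisplatin, seen also with a GFP reporter. By RNAi it found that this induction depended on *skn-1* and not on *daf-16*. The osmotic reporter *gpdh-1*, a glycerol-3-phosphate dehydrogenase gene, had 15.3 and 14.5 FPKM after cisplatin, against 11.1 and 14.7 FPKM in control, so the groups overlapped. The antimicrobial peptide gene *nlp-29* had 38.5 and 156 FPKM after cisplatin, against 21.6 and 180.2 FPKM in control, with the wide spread inside each group. *nlp-31*, another antimicrobial peptide gene, had 53.2 and 127 FPKM after cisplatin, against 26.9 and 109 FPKM in control, higher in both pairs but with overlap. The reporter *hmit-1.1* had 12.4 and 13.9 FPKM after cisplatin, against 6.74 and 17.1 FPKM in control. All 5 reporters had positive differences, with a median of 0.31. Over all tested genes the median was 0.13, and 10448 of 15065 were positive. Between the libraries numbered 2, *nlp-29*, *gpdh-1* and *hmit-1.1* were lower with cisplatin. The 5 reporters stayed positive under both scalings, and 0 passed by adjusted p. Stage markers were read for treatment too, and 0 of them passed by adjusted p. The 30 genes of major sperm protein summed to 2737 and 3177 FPKM with cisplatin, against 6855 and 5499.7 FPKM in control, and 28 were lower at an unadjusted p up to 0.05 (limma). Reads that mapped to several of these near-identical copies were discarded by the authors, so the level of each copy is uncertain. The 6 yolk genes summed to 17217 and 17015 FPKM with cisplatin, against 22946 and 20458 FPKM in control, with 0 past an unadjusted p of 0.05. Oocyte and embryo genes had median log2 differences of 0.19 and 0.17, also with 0 at that level. These counts too are from the fit without a term for the library number. The part of such stage differences in the collagen values was not tested.

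A gap that appeared in 1 pair of libraries alone was seen for collagens of low level. Between the libraries numbered 2, 12 collagen genes, or 7.84%, were lower with cisplatin by at least 1 on the log2 scale, against 2.67% of all tested genes, and 0 were higher by as much, against 1.73%. Their mean levels were at most 13.9 FPKM. Between the libraries numbered 1, 5 collagen genes were higher by at least 1, or 3.27%, against 7.85% of all genes, and 0 were lower by as much, against 1.94%. *col-123* and *col-158* stood in both sets, higher with cisplatin in 1 pair and lower in the other.

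The collagens differed far more between the library numbers than between treatments. In 130 of the 153 tested genes, or 84.97%, the difference between libraries numbered 2 and 1 was larger than that between cisplatin and control, against 76.5% of all tested genes. Each number stands for 1 cisplatin and 1 control library, so treatment is balanced in this comparison, and nothing in the labels says what the numbers share. It was fitted with limma in the same way. Of the 153 genes, 61 were called higher in the libraries numbered 2, or 39.9%, against 11.3% of all genes. Another 7 were called lower, or 4.58%, against 1.11% of all genes. In 95 collagen genes both libraries numbered 2 were above both numbered 1, and in 28 both were below, which is 62.1% and 18.3% against 57.3% and 14.1% of all genes.

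The median log2 difference was 0.75 over the collagens, against 0.47 over all tested genes, and the middle 50% of the collagens ran between -0.03 and 1.42. Within treatments the collagen median was 0.52 between the cisplatin libraries and 0.97 between the control libraries, against 0.28 and 0.64 over all genes. The scaling of the libraries matters here. With every library scaled to the same median the median over all genes was -0.12, and 30 collagens (19.6%) were called higher and 14 (9.15%) lower, against 5.15% and 9.84% of all genes, so the lower calls were near the background share. With quantile normalization the all-gene median was -0.03, and the counts were 23 higher (15.03%) and 0 lower, against 0.797% and 0.146% of all genes. At an unadjusted p up to 0.05 in that fit (limma), 72 collagens were higher and 12 lower. That was 47.1% and 7.84%, against 12.5% and 13.2% of all genes. The counts fell when a library was left out: 43 higher and 3 lower without cisplatin library 1, 4 and 0 without cisplatin library 2, 0 and 0 without control library 1, and 1 and 0 without control library 2. All 61 and all 7 genes kept their direction in each of these 4 fits. That was fixed in advance, since in each of these genes the libraries of the 2 numbers did not overlap.

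**Figure D2:**
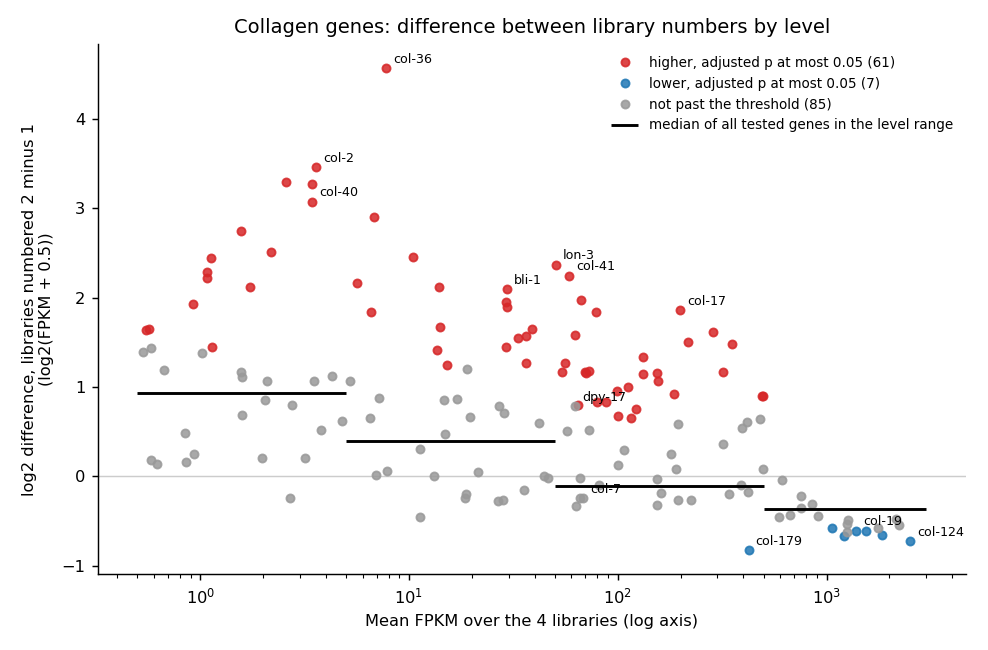
Each point is 1 of the 153 tested collagen genes, with its mean FPKM on a log x axis and the log2(FPKM + 0.5) difference of libraries numbered 2 minus 1 on the y axis. Red points (61) and blue points (7) are the genes called higher and lower at an adjusted p of at most 0.05 (limma), grey points (85) were not called, and black bars are medians of all tested genes in 4 level ranges. The largest differences are those of *col-36* and *col-2* at low levels, and the points at the right edge lie below 0.

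The furrow collagens rose together in the libraries numbered 2. All 6 were called, with a median log2 difference of 1.61, and their summed level was 309 and 310 FPKM in cisplatin and control libraries numbered 2, against 97 and 101 FPKM in those numbered 1. *dpy-7* (F46C8.6, chromosome X, 7536467 to 7537792, minus strand, 2 exons) had 58.6 and 59.9 FPKM in the libraries numbered 2, cisplatin first, against 20.1 and 17.2 FPKM in those numbered 1. The difference was 1.64 ± 0.174 (SE), with an adjusted p of 0.0110 (limma, Benjamini-Hochberg). *dpy-10*, the gene whose dumpy and roller alleles serve as a marker in genome editing, had 43.9 and 49.2 FPKM in those numbered 2, against 13.1 and 10.4 FPKM. *dpy-2* had 52.9 and 56.9 FPKM, against 16.8 and 19.5 FPKM. In each of these genes the same-numbered libraries were much alike whatever the treatment. *dpy-3*, *dpy-8* and *dpy-9* had log2 differences of 1.27, 1.89 and 1.55, and the levels of the 6 genes within any 1 library lay close together, as the plot of levels by library shows.

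The other dumpy collagens were more abundant and showed the same split. *dpy-13* (F30B5.1, chromosome IV, 4235614 to 4236710, plus strand, 3 exons) had 437 and 421 FPKM in cisplatin and control libraries numbered 2, against 151 and 129 FPKM in those numbered 1, a log2 difference of 1.61 ± 0.140 (SE). *dpy-5* had 302 and 338 FPKM in the libraries numbered 2, against 116 and 109 FPKM. *sqt-3*, which encodes a collagen trimmed by the protease DPY-31, had 440.1 and 440.1 FPKM in the libraries numbered 2, against 189 and 203 FPKM in those numbered 1. All 3 passed the threshold, with adjusted p between 0.0107 and 0.0116 (limma). *dpy-17*, a collagen that acts with *sqt-3*, was the only classically named gene that did not pass. Its levels were 70.1 and 86.9 FPKM in those numbered 2, against 57.4 and 35.3 FPKM in those numbered 1, and its adjusted p was 0.0713 (limma). The log2 difference of *dpy-17* was 0.29 between the cisplatin libraries and 1.29 between the control libraries. With 1 library in each such cell, a difference between treatments in this gap could not be tested.

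**Figure D3:**
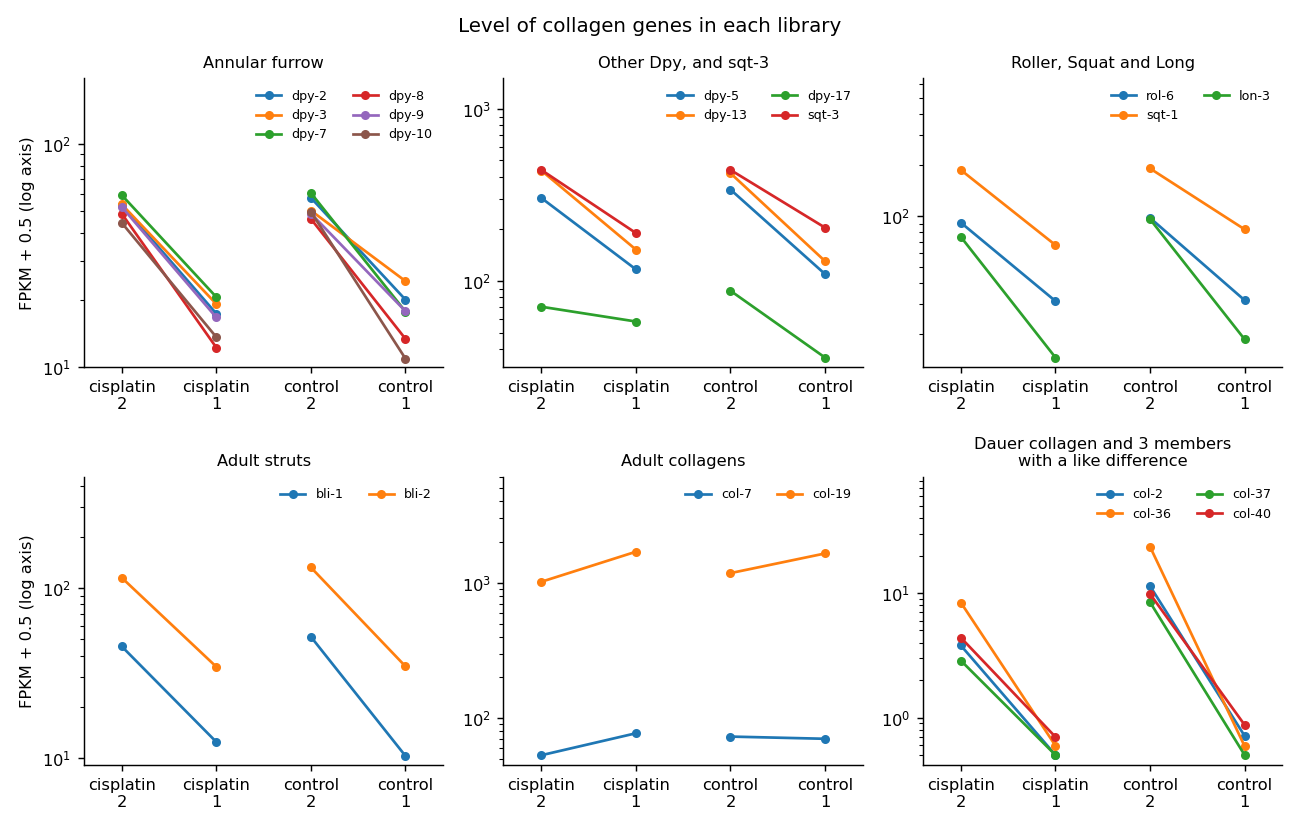
Level of 21 collagen genes in each library, as FPKM + 0.5 on a log axis, in 6 panels by the role of the gene, with a line joining the libraries of each treatment. In the 4 panels of classically named genes both libraries numbered 2 are above both numbered 1, *col-19* runs the other way, and *col-2*, *col-36*, *col-37* and *col-40* have the steepest lines.

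Collagens named for roller, squat and long mutants behaved alike. *rol-6*, whose dominant alleles make animals roll and which is widely used as a transformation marker, had 90.7 and 96.8 FPKM in cisplatin and control libraries numbered 2, against 30.8 and 31.2 FPKM in those numbered 1. *sqt-1* had 186 and 190.4 FPKM in the libraries numbered 2, against 66.7 and 82.7 FPKM. *lon-3*, in which both loss and excess change body length, had 74.6 and 95.1 FPKM, against 14.0 and 18.1 FPKM. Its difference of 2.37 ± 0.208 (SE) was the largest among the 15 classically named genes. The strut collagens followed: *bli-1* had 44.8 and 51.1 FPKM in the libraries numbered 2, against 11.9 and 9.77 FPKM, and *bli-2* had 114 and 131 FPKM, against 33.9 and 34.1 FPKM. Over the 15 genes the summed level was 2068 and 2161 FPKM in the libraries numbered 2, against 767 and 753 FPKM in those numbered 1. All 15 were higher in both treatments, 14 were called, and all 15 stayed higher under median scaling and under quantile normalization, where 8 and 12 were called.

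The collagens with the smallest p for library number were *col-17* and *col-41*, both of 2 exons. *col-17* had 322 and 305 FPKM in the libraries numbered 2, against 85.4 and 86.6 FPKM in those numbered 1, and *col-41* had 99.04 and 94.8 FPKM, against 17.98 and 22.3 FPKM. Their log2 differences were 1.86 ± 0.129 and 2.25 ± 0.174 (SE), each with an adjusted p of 0.0101 (limma). Of the 61 genes called higher, the lowest mean level was 0.552 FPKM, the median 38.9 and the highest 496 FPKM, and their median log2 difference was 1.58. All but *col-14* of the 61 kept their direction under both scalings, and *col-14* had a log2 difference of 0.65 in the deposited FPKM.

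The largest differences of all were those of low-level collagens. *col-2* is known as a collagen of dauer larvae, the stage that forms under crowding and starvation. It had 3.29 and 10.9 FPKM in cisplatin and control libraries numbered 2, and it was listed at 0 and at 0.212 FPKM in those numbered 1. The log2 difference was 3.46 ± 0.569 (SE), with an adjusted p of 0.0266 (limma). 3 further genes, chosen after their values were seen, had the same pattern. *col-36* had 7.89 and 23.1 FPKM in the libraries numbered 2, against 0.0947 and 0.0889 FPKM in those numbered 1, a log2 difference of 4.57. *col-40* had 3.88 and 9.34 FPKM, against 0.198 and 0.372 FPKM. *col-37* had 2.37 and 7.95 FPKM in the libraries numbered 2 and was listed at 0 in both numbered 1. In all 4 genes the control library numbered 2 held the highest value, above the cisplatin library of that number. *cut-1*, a cuticlin of the dauer cuticle that is not a collagen, had 2.73 and 7.49 FPKM in the libraries numbered 2, against 0 and 0.0655 FPKM in those numbered 1. Among all collagen genes, 14 were listed at 0 in some library, 6 of them in both libraries numbered 1 and 0 in a library numbered 2.

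At the other end, the most abundant collagens were lower in the libraries numbered 2. The 6 highest mean levels belonged to *col-124*, *col-181*, *col-122*, *col-20*, *col-119* and *col-140*. *col-124* (C24F3.6, chromosome IV, 10216451 to 10217617, plus strand, 2 exons) had 1728 and 2074 FPKM in the libraries numbered 2, against 3239.6 and 3029.8 FPKM in those numbered 1, a log2 difference of -0.73 ± 0.175 (SE) and an adjusted p of 0.0453 (limma). *col-181* had 1726 and 1904 FPKM, against 2675 and 2606 FPKM, and *col-122* had 1767 and 1838 FPKM, against 2448 and 2578 FPKM. Both libraries numbered 2 were below both numbered 1 in these genes, but *col-181* and *col-122* missed the threshold, with adjusted p of 0.0619 and 0.0749 (limma). The order of the top 3 was not resolved by the libraries, since their ranges overlapped.

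The 7 collagens called lower were *col-179*, *col-124*, *col-106*, *col-20*, *col-19*, *col-140* and *col-184*, with log2 differences between -0.82 and -0.58 and mean levels between 423 and 2518 FPKM. *col-179* had 281 and 331 FPKM in the libraries numbered 2, against 548 and 533 FPKM in those numbered 1. *col-19* (ZK1193.1, chromosome X, 421707 to 422691, plus strand, 2 exons) is the standard marker of the adult epidermis. It had 1015 and 1177 FPKM in the libraries numbered 2, against 1692 and 1643 FPKM in those numbered 1, with an adjusted p of 0.0490 (limma). *col-7*, another adult collagen at a far lower level, had 52.9 and 72.8 FPKM in the libraries numbered 2 and 77.0 and 70.1 FPKM in those numbered 1, so its libraries overlapped and it was not called. The 7 kept their direction under both scalings, though with quantile normalization 0 of them passed and with median scaling 4 did.

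Ordered by level, the collagens ran in opposite directions. The 19 collagens with a mean of at least 500 FPKM, a limit chosen after the values were seen, were all lower in the libraries numbered 2 in both treatments. Their summed level was 19069 and 21178 FPKM in the libraries numbered 2, against 28692 and 29638 FPKM in those numbered 1. That was 58.5% and 60.7% of all collagen FPKM, against 75.2% and 77.0%. Quantile normalization left 16 of the 19 lower. In the deposited values their median log2 difference was -0.53, against -0.37 for all 264 tested genes of that level, of which 221 were lower in both treatments. Between 50 and 500 FPKM, 30 of 57 collagens were called higher and 1 lower, or 52.6% and 1.75%, against 5.59% and 4.51% of all genes of that level. The medians there were 0.75 and -0.11. Between 5 and 50 FPKM the collagen median was 0.87 against 0.40, and under 5 FPKM it was 1.18 against 0.94. Level itself moved with the difference over all genes, so the comparison within each level range is the closer one, and the part of the library-wide shift in these values was not tested.

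**Figure D4:**
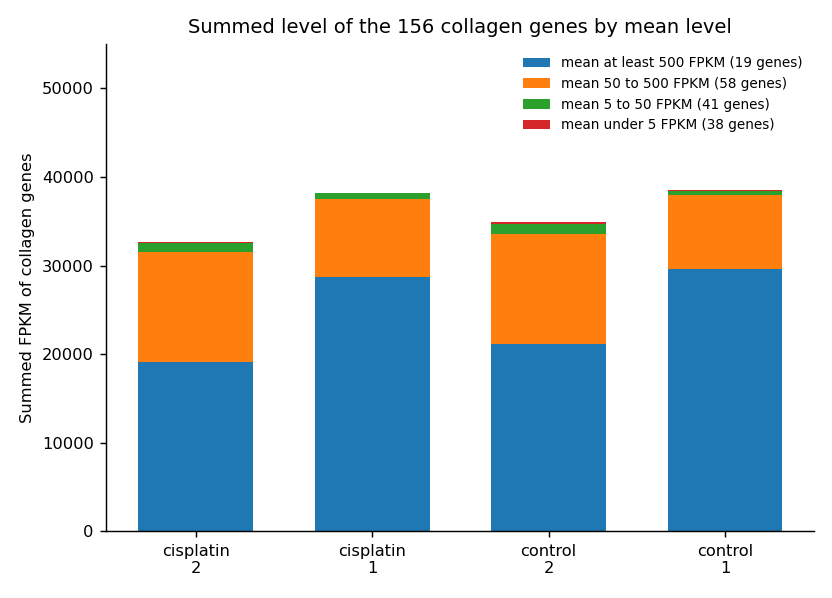
Summed FPKM of the 156 collagen genes in each library, stacked by the mean level of the gene over the 4 libraries. The 19 genes of at least 500 FPKM make up 19069 and 21178 FPKM in the cisplatin and control libraries numbered 2, against 28692 and 29638 FPKM in those numbered 1.

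The 85 tested collagens that were not called for library number lay between these extremes. Their mean levels ran from 0.532 to 2228 FPKM with a median of 35.5, and their log2 differences from -0.62 to 1.43 with a median of 0.14. In 34 of them both libraries numbered 2 were above both numbered 1, and in 21 both were below, while 30 overlapped. Of all tested genes, called or not, 57.3% were above and 14.1% below in this way. The summed level of the 85 collagens was 18398 and 19574 FPKM in cisplatin and control libraries numbered 2, against 22463 and 23799 FPKM in those numbered 1. The 61 called higher summed to 6792 and 6991 FPKM in the libraries numbered 2, against 3149.8 and 2737 FPKM. So the genes called higher were many but held the smaller part of the collagen signal in every library.

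Neighbouring collagen genes did not always move together. *col-3* and *col-117*, 587 bp apart on chromosome IV, had mean levels of 491 and 496 FPKM and log2 differences between library numbers of 0.90 each. On chromosome II, *col-17* (4866436 to 4867576), *col-20* (4869670 to 4870791) and *col-73* (4872098 to 4873129) lie in a row on the minus strand, separated by 2093 and 1306 bp. Their differences were 1.86, -0.66 and 1.48, so the middle gene, with the highest mean level of 1848 FPKM, went the other way from both neighbours. *bli-1* and *col-80* are 672 bp apart on the same strand of chromosome II, with mean levels of 29.4 and 1264 FPKM and differences of 2.10 and -0.49. *col-12* and *col-13*, a tandem pair on chromosome V that is almost identical in sequence, had mean levels of 162 and 154 FPKM and differences of -0.19 and -0.32. Reads with several mapping sites were removed by the authors, so the levels of such near-identical genes are uncertain.

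Other collagens with a known role did not pass the threshold for library number. *col-10*, *col-13* and *col-120* are collagens linked to lifespan under reduced insulin signalling. *col-10* had 637 and 534 FPKM in the libraries numbered 2, against 415 and 335 FPKM in those numbered 1, with an adjusted p of 0.0506 (limma) and a log2 difference of 0.64 that was -0.02 under median scaling. *col-120* had 18.96 and 24.5 FPKM in the libraries numbered 2, against 23.5 and 18.3 FPKM, with overlap. For cisplatin against control, the log2 differences were 0.28, 0.05 and -0.00 for *col-10*, *col-13* and *col-120*. *col-99*, a transmembrane collagen of 18 exons with a role in axon guidance rather than in the cuticle, had 4.88 and 4.99 FPKM in the libraries numbered 2, against 2.27 and 1.91 FPKM. It was not called, with an adjusted p of 0.0710 (limma).

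Genes that make, assemble or process collagen, or act on the cuticle, were read beside the collagens. Of 5 tested genes for prolyl hydroxylation and folding, 3 were called higher in the libraries numbered 2. *dpy-18*, a catalytic subunit of collagen prolyl 4-hydroxylase, had 57.0 and 63.6 FPKM, against 23.5 and 23.7 FPKM in those numbered 1, and its partner *phy-2* had 27.3 and 30.98 FPKM, against 12.6 and 10.9 FPKM. *pdi-2*, their protein disulphide isomerase subunit, had a log2 difference of 0.60. Of this list 1 gene was called with quantile normalization and 0 with median scaling, where 2 of 5 stayed higher and the median was -0.07. Of 5 genes for proteases or a protease inhibitor, 2 were called higher, the astacin protease *nas-37* and the protease inhibitor *mlt-11*, with log2 differences of 1.18 and 1.77. *bli-4*, the furin-like protease that cleaves procollagens, had a difference of 0.21 and did not pass. Nor did *dpy-31*, whose protease trims the *sqt-3* collagen, or *nas-36*. Their differences were 0.99 and 1.30, with adjusted p of 0.0578 and 0.0570 (limma). The crosslinking list had 0 calls of 4 by adjusted p. At an unadjusted p up to 0.05 (limma), 3 of the 4 were higher, as were 5203 of all 15065 tested genes. The dual oxidase *bli-3* and peroxidase *mlt-7* of this list had log2 differences of 0.96 and 0.86 (limma).

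Other proteins of the cuticle and of moulting were also higher in the libraries numbered 2. Among 11 other cuticle proteins, 7 were called higher, including *noah-1*, an apical matrix protein of the zona pellucida type. It had 54.6 and 64.6 FPKM in the libraries numbered 2, against 17.7 and 15.8 FPKM in those numbered 1. Of 10 moulting genes 7 were called higher, and *mlt-10* had 49.6 and 57.1 FPKM, against 12.7 and 10.9 FPKM. The nuclear receptor gene *nhr-23*, which drives the moulting cycle, did not pass, with 32.4 and 33.2 FPKM in the libraries numbered 2, against 30.9 and 29 FPKM in those numbered 1. Of 4 epidermal fate factors tested, the GATA factor gene *elt-6* was called higher, with 5.25 and 5.53 FPKM in the libraries numbered 2, against 1.58 and 1.82 FPKM. *elt-1* and *elt-3* had log2 differences of 0.93 and 0.73 without overlap and did not pass. *lin-26*, another gene of epidermal identity, had 61.9 and 60.6 FPKM in those numbered 2, against 54.9 and 65.7 FPKM, with overlap. Under either scaling 9 of 11 cuticle proteins and 9 of 10 moulting genes kept the higher direction, with fewer calls. The cuticle proteins had 2 calls under each scaling, and the moulting genes had 3 with quantile normalization and 5 with median scaling. For cisplatin against control these lists had 0 genes at an adjusted or unadjusted p of at most 0.05 (limma, without a term for the library number).

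Markers of stages and of other tissues were read in the same way for library number. The 6 oocyte and eggshell genes tested were all lower in the libraries numbered 2 in both treatments, with a median log2 difference of -0.46, and 0 of 6 were called, while 4 were lower at an unadjusted p up to 0.05 (limma). Of 6 yolk genes, which adult intestine expresses, 0 were called, also without adjustment, and 4 had negative log2 differences that quantile normalization made positive. The 30 genes of major sperm protein had 0 calls by adjusted or unadjusted p, a median of -0.07, and overlapping libraries in all 30. In the embryo list 1 of 4 genes was called higher and 1 lower. Muscle, intestine and neuron lists had 1 of 5, 0 of 4 and 2 of 5 genes called higher. Of all 15065 tested genes, 5203 were higher and 782 lower at an unadjusted p up to 0.05 (limma). At that level 4 muscle, 1 intestine and 4 neuron genes were higher, and 1 muscle gene was lower. The median log2 differences of these lists were 0.68, 0.10 and 0.87, against 0.75 over the collagens and 0.47 over all tested genes. For the basement membrane collagens, made outside the cuticle, 1 of 3 was called higher, the type IV collagen gene *let-2* with 165 and 186 FPKM in the libraries numbered 2, against 99.8 and 84.4 FPKM. The part of a different mix of stages in the collagen differences was not tested.

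The 3 collagen genes without a test were of 2 kinds. *col-90* had 20.4 and 97.8 FPKM after cisplatin and 108.6 FPKM in control library 2, and its estimate was marked as failed in control library 1. *col-72* and *col-132* had mean levels of 0.474 and 0.363 FPKM, under the minimum of 0.5 FPKM for a test. The pseudogene *col-182* was tested and had 11.9 and 12.9 FPKM in cisplatin and control libraries numbered 2, against 1.62 and 0.889 FPKM in those numbered 1, a log2 difference of 2.91 with an adjusted p of 0.0159 (limma).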

How the data were processed

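Gene levels were measured by paired-end RNA-seq in 4 libraries, 2 of cisplatin-treated and 2 of control populations. The dose of 60 µg/ml is that of the treatment label, while a protocol text common to all samples gives 0 µg/ml. The authors aligned reads of 100 bp with TopHat to WBcel235, discarded reads that mapped to several sites, and used Cufflinks and Cuffdiff (versions and strand setting not given in the sources used here). The deposited unit is FPKM per gene and library, scaled by the authors' software to gene length and mapped fragments, so it is not a count. The 8 columns of confidence bounds, the pooled FPKM of each condition and the deposited Cuffdiff fold changes, p-values and q-values were not used.

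Columns were matched to samples by name. The 88 genes with an estimate marked as failed were left out, as were genes with a mean under 0.5 FPKM, leaving 15065. The log2(FPKM + 0.5) values were fitted with limma 3.58.1 (intensity trend, R 4.3.3) over all these genes, for cisplatin against control and for library number 2 against 1, with Benjamini-Hochberg adjustment and a threshold of 0.05. Errors are limma's standard errors. Code was tested on simulated data. Coordinates and gene models are from Ensembl release 115 of the same assembly, where *col-70* is named H17B01.2.

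The members and lists were chosen with earlier results of these data known. The genes named were the 15 with a classical name, *col-2*, *col-7*, *col-10*, *col-12*, *col-13*, *col-19*, *col-99* and *col-120*, the 6 with the smallest unadjusted p per direction and comparison among those on the same side in both pairs, the 6 with the highest mean and examples from each list. Those outside this rule (*col-36*, *col-37*, *col-40*, members at neighbouring loci, genes with failed or low values, and the genes of a count of 5 or fewer) and the level ranges were chosen after values were seen. Alternatives changed the pseudocount, the minimum, failed estimates, scaling, trend, terms of the fit and the libraries included.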

Additional observations from a re-analysis of the deposited data

How the results depend on the processing

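For cisplatin against control, 0 collagen genes were called in each direction under every alternative. The collagen median relative to all genes was -0.12, and leaving out each library in turn gave -0.14 to 0.18. With a library left out, the library numbers were not balanced between the treatments. The direction depended on scaling. In the deposited FPKM 80 collagens had positive and 73 negative differences, with quantile normalization 57 and 96, and with median scaling 35 and 118. Over all 15065 genes these counts were 10448 and 4617, 7847 and 7216, and 6179 and 8886. For libraries numbered 2 against 1 the calls were 61 higher and 7 lower. They were 40 and 2 with a minimum mean of 5 FPKM, 30 and 14 with libraries scaled to the same median, 23 and 0 with quantile normalization, 41 and 1 with failed estimates kept at 0, 46 and 0 without an intensity trend, and 81 and 15 with treatment as a term. Leaving out each library gave 0 to 43 higher and 0 to 3 lower. The median relative to all genes, 0.28, was 0.40 with the minimum of 5 FPKM and 0.45 with quantile normalization, and 0.23 to 0.34 when a library was left out. The cause of these changes was not tested, except that the higher minimum left 117 collagen genes to test.

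With the replicate number as a block (replicate block), 0 collagen genes were called by adjusted p (limma), against 1.53% of all genes higher and 0.916% lower. By unadjusted p up to 0.05 in that fit, 10 collagens were higher and 6 lower, or 6.54% and 3.92%, against 6.92% and 2.93% of all genes. Without the block the collagen counts were 0 and 0. Deviations from the group means in same-numbered libraries correlated at 0.594 over all tested genes and 0.896 over the collagens. There are 2 pairs, and no label says what the libraries of the same number have in common. The alternative without near-identical proteins was not run, since no protein sequences were at hand. A depth per library is not known from FPKM, so collagens listed at 0 cannot be told from collagens below detection.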
